A study of Capra hircus with 6 samples.

Results

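TET dioxygenases, the glycosylase TDG, the nuclease APEX1 and the GADD45 proteins make up a set of 8 genes of active DNA demethylation, which was followed in the goat pineal gland across puberty. The genes were taken by symbol. Of the 8 symbols, 7 had 1 row each among the 28244 genes of the count table, namely TET1, TET2, TET3, TDG, GADD45A, GADD45B and GADD45G. APEX1 matched no symbol and was not analysed here. All 7 passed the filter on low counts, with 145 to 3967 reads per gene and library.

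Transcripts were measured by RNA sequencing of whole pineal glands of female goats (Capra hircus), the melatonin-secreting gland of the brain. The prepuberty and puberty groups held 3 libraries each, and the labels mark all 6 as untreated. Per the series description, the pubertal animals were recognised by an inflamed vulva and by some mature follicles on ovarian histology. Breed, age and the hour of collection are not given in the sources used here, nor is it said whether each library stands for 1 animal. The p-values thus rest on the spread among libraries, part of which may be technical. Library totals ran from 18864451 to 20971065 counts, and no library repeated another. The genes of the pinealocyte, the melatonin-producing cell, were abundant in each library, with 11 of the 12 listed genes in the table, none of them at 0, and a summed level of 7792 to 8509 CPM (counts scaled to the library total) in prepuberty and 8264 to 9628 CPM in puberty. Puberty replicate 2 stood apart by genes of the choroid plexus list of 10, among them the transthyretin gene TTR, at 10089.5 CPM against 75.3 to 464.0 CPM in the other 5 libraries, KL, at 42.8 CPM against 1.08 to 3.49 CPM, and KCNJ13, at 84.8 CPM against 1.08 to 4.96 CPM. TTR made up most of the list's summed level of 10818 CPM there (664 to 1053 CPM in the other libraries), and SLC4A5 was lowest in that library, at 21.2 CPM.

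TET enzymes oxidise the methyl group of methylated cytosine in DNA, first to hydroxymethylcytosine and then to formyl and carboxyl forms. TDG cuts out these last forms, and base excision repair then restores an unmodified cytosine. GADD45 proteins are small, stress-inducible nuclear proteins that bind MAP3K4 and PCNA, and work in other mammals, mouse brain included, has linked them to this kind of demethylation. The study also measured DNA methylation in these glands, and those data were not analysed here.

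The 3 TET genes were lower in puberty. TET1 fell 2.12-fold, TET3 1.79-fold and TET2 1.45-fold, and for each of them all puberty libraries lay below all prepuberty libraries. TDG had a log2 fold change of -0.49 and the GADD45 genes had log2 fold changes of 0.46 to 0.80, without passing the test. In all, 3 of the 7 genes were called lower and 0 higher by edgeR's quasi-likelihood test at an adjusted p under 0.05, whereas 5.64% of the 16588 genes tested were called lower and 5.85% higher. The adjustment ran over all genes tested. The median log2 fold change was -0.49 over the 7 genes and 0.01 over all tested genes. In bulk tissue, fewer cells of a type and less RNA per cell cannot be told apart.

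**Figure D1:**
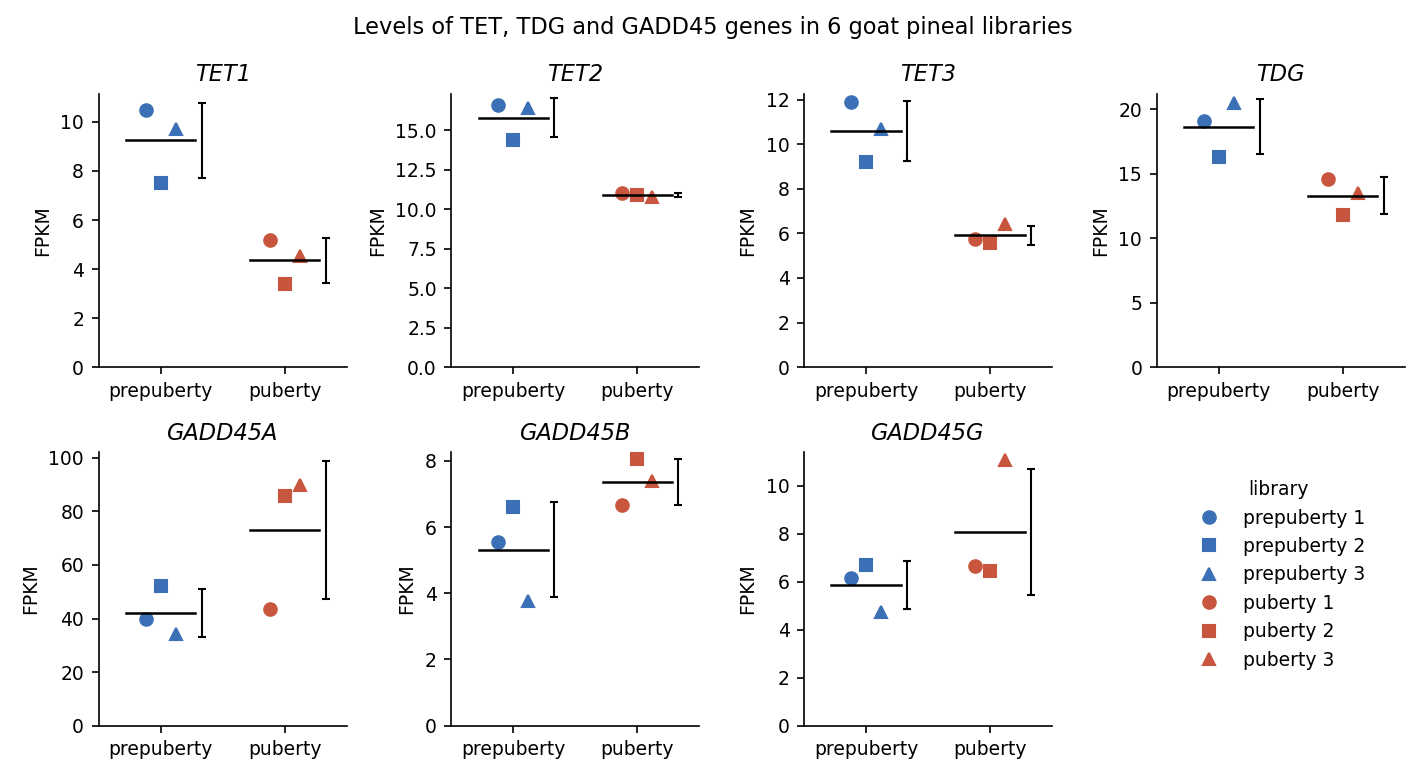
FPKM (reads scaled by listed gene length and library depth, as deposited) of each of the 7 genes in each library, one panel per gene, with prepuberty libraries in blue and puberty libraries in red. Horizontal lines are group means and the bars beside them 1 SD (n = 3). The groups are apart for TET1, TET2, TET3, TDG and GADD45B, and overlap for GADD45A and GADD45G.

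TET1, which carries a CXXC domain that binds unmethylated CpG sites, lies on chromosome 28 (20603739 to 20724959, minus strand, in the authors' table). It was at 69.9, 50.1 and 64.7 CPM in the prepuberty libraries and at 34.4, 22.4 and 30.1 CPM in the puberty libraries. Every puberty library was below the lowest prepuberty library, and replicate 2 was the lowest of each group. The group means were 61.6 ± 10.2 and 29.0 ± 6.04 CPM (SD, n = 3 per group), a log2 fold change of -1.09 (SE 0.18, 95% interval -1.49 to -0.68, edgeR adjusted p = 0.014). Only 1.36% of all tested genes had a lower log2 fold change.

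TET3, the TET enzyme known for oxidising the paternal genome in the mouse zygote, lies on chromosome 11 (10431574 to 10484651, minus strand). Its level was 58.7, 45.5 and 53.0 CPM in prepuberty and 28.5, 27.5 and 31.7 CPM in puberty. The 3 puberty values were close together and well under the lowest prepuberty value. The means were 52.4 ± 6.63 and 29.2 ± 2.18 CPM (SD, n = 3 per group), and the log2 fold change of -0.84 (SE 0.12, 95% interval -1.11 to -0.58, edgeR adjusted p = 0.014) had the 57th smallest p of the 16588 genes tested.

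TET2, which lacks a CXXC domain of its own and is best known from blood cancers, where it is often mutated, lies on chromosome 6 (20215950 to 20310872, minus strand). It was at 173.5, 150.1 and 171.2 CPM in prepuberty and at 115.1, 113.3 and 112.2 CPM in puberty. The puberty libraries hardly differed from one another, with a mean of 113.6 ± 1.47 CPM, and all lay under the prepuberty mean of 164.9 ± 12.9 CPM (SD, n = 3 per group). The log2 fold change was -0.54 (SE 0.09, 95% interval -0.73 to -0.34, edgeR adjusted p = 0.014).

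The TET transcripts are long, with listed lengths of 10395 nt for TET2, 6629 nt for TET1 and 4923 nt for TET3, and long genes as a class were lower in the puberty libraries. The 2446 tested genes at least as long as TET3 had a median log2 fold change of -0.14, against 0.03 for the 14142 shorter ones. With offsets that take out each library's trend on gene length, TET1 had a log2 fold change of -0.94 (edgeR adjusted p = 0.030) and TET3 of -0.74 (edgeR adjusted p = 0.026). TET2 lost its call under these offsets, at -0.31 (95% interval -0.49 to -0.12, edgeR adjusted p = 0.062). That leaves 2 of the 7 genes called lower and 0 higher, where 2.77% of all tested genes were called lower and 2.86% higher. The calls of all 3 TET genes were lost without prepuberty replicate 1, when edgeR called 0 genes of the whole table (3924 at an unadjusted p under 0.05) and gave the TET genes an adjusted p of 0.061 to 0.062. In the other 5 fits that leave out 1 library edgeR called all 3, with 1.56% to 3.21% of all genes called lower. DESeq2 with 5 libraries, an alternative chosen after the data were seen, called each of the 3 in all 6 fits. No fit with a library left out, by edgeR or DESeq2, used length offsets. Those fits called 5.95% to 7.78% of all genes lower. The log2 fold changes were -1.23 to -0.93 for TET1, -0.94 to -0.75 for TET3 and -0.60 to -0.50 for TET2.

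**Figure D2:**
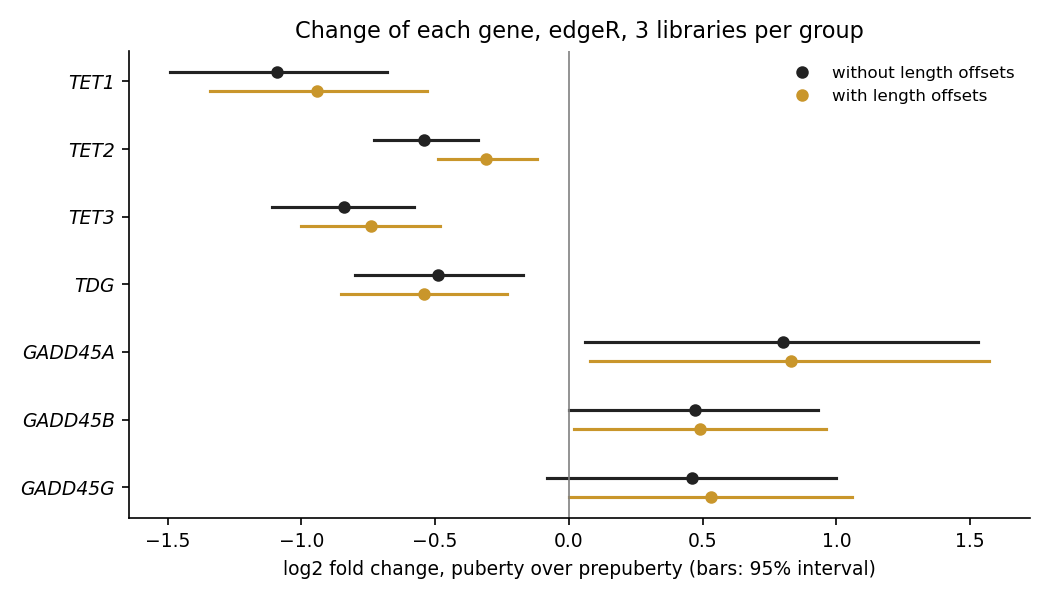
Log2 fold change of puberty over prepuberty for each gene, from edgeR on the 6 libraries, without (black) and with (ochre) offsets for gene length. Bars are 95% intervals of the single gene, not adjusted for the number of genes. Offsets moved TET2 from -0.54 to -0.31 and TDG from -0.49 to -0.54.

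Per length, TET2 was the most abundant TET transcript in each library. The summed level of the 3 genes was 39.0, 31.1 and 36.8 FPKM in prepuberty and 22.0, 19.8 and 21.7 FPKM in puberty, so the 2 groups were apart. TET2 made up 42.6% to 46.2% of that sum in prepuberty and 49.6% to 54.9% in puberty, while TET1 made up 24.2% to 26.9% and then 17.0% to 23.5%. The share of TET3 was 29.1% to 30.5% and then 26.2% to 29.5%, with ranges that overlap.

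Ratios within a library do not depend on how libraries are scaled to each other. Like the shares above, they were not corrected for each library's trend on gene length. The ratio of TET1 to TET2, in FPKM, was 0.631, 0.524 and 0.593 in prepuberty and 0.468, 0.311 and 0.420 in puberty, a log2 difference of -0.56. The ratio of TET3 to TET2 was 0.714, 0.640 and 0.654 in prepuberty and 0.522, 0.512 and 0.596 in puberty, a log2 difference of -0.30. In both, no puberty library reached a prepuberty library, and the two-sided exact permutation test gave p = 0.1 (0.15 adjusted over the 3 ratios computed), which is the smallest p that 3 libraries against 3 allow. The ratio of TET1 to TET3 overlapped between the groups, at 0.818 to 0.906 and 0.607 to 0.896 (exact permutation p = 0.3, also after adjustment).

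**Figure D3:**
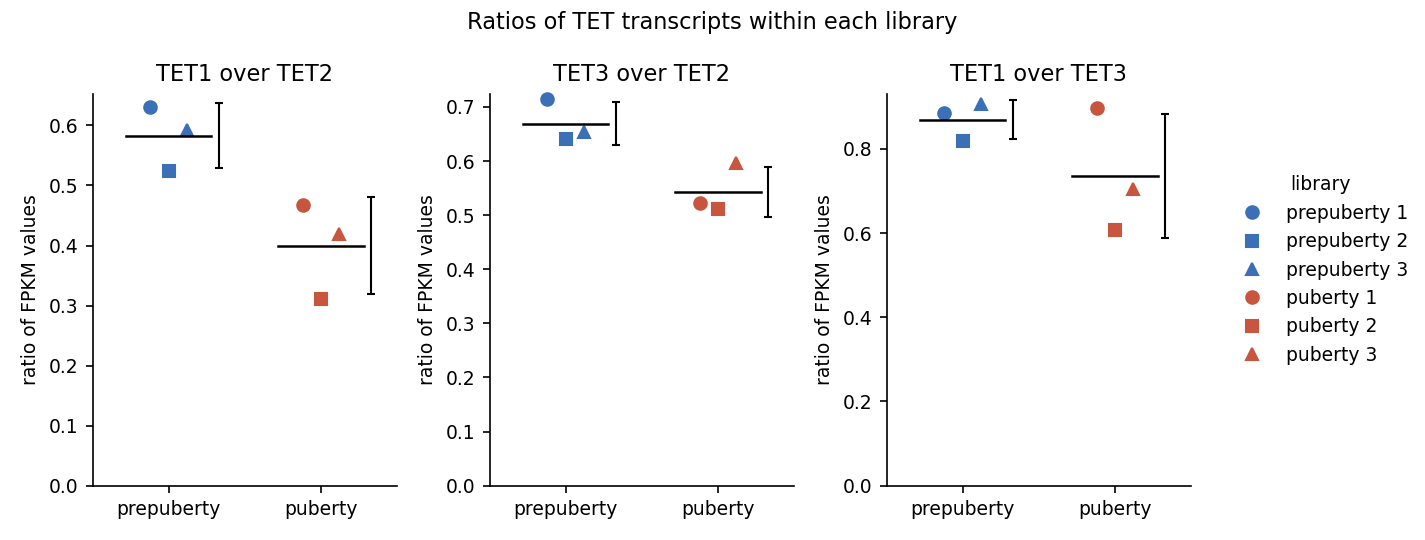
Ratio of the FPKM values of 2 TET genes within each library, with prepuberty in blue and puberty in red, group means as lines and 1 SD as bars (n = 3). TET1 and TET3 are lower relative to TET2 in each puberty library, with mean ratios of 0.400 against 0.583 and 0.543 against 0.670.

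TDG, the glycosylase that acts on the oxidised bases, lies on chromosome 5 (66330238 to 66343244, plus strand). It was at 23.4, 19.9 and 25.1 CPM in prepuberty and at 17.9, 14.4 and 16.5 CPM in puberty. The groups were apart, and the log2 fold change was -0.49 (SE 0.14, 95% interval -0.80 to -0.17), but TDG did not pass edgeR's test (adjusted p = 0.053, or 0.054 with length offsets). DESeq2, which called more genes in all (8.51% lower and 8.94% higher), called TDG at an adjusted p of 0.027, and with single libraries left out it called TDG in 2 of 6 fits (adjusted p = 0.012 to 0.13), those without prepuberty replicate 2 or puberty replicate 1.

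GADD45A, the most abundant of the 7 genes per length, lies on chromosome 3 (43246366 to 43250380, plus strand). Its level was 87.1, 113.7 and 75.2 CPM in prepuberty and 94.99, 187.2 and 196.8 CPM in puberty. Puberty replicates 2 and 3 were above each prepuberty library, whereas puberty replicate 1 lay within the prepuberty range. The log2 fold change was 0.80 (SE 0.30, 95% interval 0.06 to 1.53, edgeR adjusted p = 0.15). Without puberty replicate 1 it was 1.06 and called (edgeR adjusted p = 0.032), where 2.21% of all genes were called higher. That was the only call among the 6 edgeR fits that leave out a library (adjusted p = 0.032 to 0.32). DESeq2 on the 6 libraries also called GADD45A (adjusted p = 0.011), where 8.94% of all genes were called higher. In DESeq2 with single libraries left out, GADD45A was called in 1 of 6 fits, with log2 fold changes of 0.62 to 1.06. Those fits called 6.61% to 8.92% of all genes higher.

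GADD45B, on chromosome 7 (89446297 to 89449061, plus strand), is an activity-induced gene in mouse neurons. It was at 11.1, 13.2 and 7.53 CPM in prepuberty and at 13.3, 16.0 and 14.7 CPM in puberty. The lowest puberty library was barely above the highest prepuberty library, and the log2 fold change of 0.47 (SE 0.21) did not pass (edgeR adjusted p = 0.17). GADD45G, on chromosome 8 (88265582 to 88269691, minus strand), was at 22.4, 24.5 and 17.3 CPM in prepuberty and at 24.3, 23.4 and 40.6 CPM in puberty. Only puberty replicate 3 exceeded the prepuberty libraries, and the log2 fold change was 0.46 (SE 0.23, edgeR adjusted p = 0.24), or 0.16 without that library.

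Of the 7 genes, 4 had all puberty libraries below all prepuberty libraries and 1 had them above, where 17.6% and 17.2% of all tested genes did. In prepuberty the order of the mean levels per length was GADD45A (42.1 FPKM), TDG (18.6 FPKM), TET2 (15.8 FPKM), TET3 (10.6 FPKM), TET1 (9.25 FPKM), GADD45G (5.87 FPKM) and GADD45B (5.31 FPKM). The ranges of TDG and TET2, of TET3 and TET1, and of GADD45G and GADD45B overlapped. In puberty TET3 (5.92 FPKM) and TET1 (4.36 FPKM) stood last, below GADD45G (8.08 FPKM) and GADD45B (7.37 FPKM), and neither reached the lowest GADD45B library at 6.67 FPKM. Ranges that overlapped in puberty were those of TET2 and GADD45G and of GADD45G and GADD45B. GADD45A held 76.5% to 85.6% of the summed GADD45 level in each of the 6 libraries. This order depends on the listed gene lengths, which enter each FPKM value.

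The other DNA glycosylases start base excision at damaged or unusual bases. Of 10 listed, 9 were tested, and 1 was called higher and 0 lower, where 5.85% and 5.64% of all tested genes were. The list median was 0.28 on the log2 scale, against 0.01 for all tested genes. NTHL1, which removes oxidised pyrimidines, rose 1.67-fold, from 5.41 ± 0.578 to 9.05 ± 1.54 CPM (SD, n = 3 per group; edgeR adjusted p = 0.048), but was not called with length offsets (adjusted p = 0.083) and kept its call in 1 of the 6 fits that leave out a library, the one without puberty replicate 3. UNG, which removes uracil, MPG, which removes alkylated bases, and OGG1, which removes oxidised guanine, had log2 fold changes of 0.32, 0.36 and 0.34 (edgeR adjusted p = 0.11, 0.15 and 0.22). MBD4 and SMUG1, which like TDG can act on bases mispaired with guanine, had log2 fold changes of -0.09 and 0.15 (edgeR adjusted p = 0.69 and 0.35). NEIL3 was too low to test, at 2 to 13 counts per library.

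The later steps of base excision cut the strand, fill the gap and seal it. Of 16 listed genes 14 were tested, and 0 were called in either direction by edgeR, where 5.85% of all tested genes were called higher and 5.64% lower. Their log2 fold changes ran from -0.16 to 0.46, around a median of 0.13. The scaffold gene XRCC1 had a log2 fold change of 0.31 (edgeR adjusted p = 0.13), the flap endonuclease gene FEN1 of 0.46 (edgeR adjusted p = 0.17) and APEX2, which encodes a second abasic site nuclease, of 0.23 (edgeR adjusted p = 0.28). At an unadjusted p under 0.05 edgeR had 2 of the 14, against 4807 of all 16588 tested genes. DESeq2 called 0 of the 14, against 8.94% of all genes higher and 8.51% lower.

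TET enzymes need iron, oxygen and oxoglutarate, which isocitrate dehydrogenases supply, and ascorbate helps them. Of 12 listed genes of cofactor supply and TET binding 9 were tested, and the median log2 fold change was 0.31. Of the 9, 2 were called higher and 2 lower, where 5.85% and 5.64% of all tested genes were. IDH3B, a subunit of the mitochondrial isocitrate dehydrogenase, rose 1.36-fold, from 102.8 ± 1.96 to 139.7 ± 8.37 CPM (edgeR adjusted p = 0.016). Of its partner subunits, IDH3G had a log2 fold change of 0.35 (edgeR adjusted p = 0.052) and IDH3A of 0.34 (edgeR adjusted p = 0.21), and IDH2 one of 0.35 (edgeR adjusted p = 0.055). CXXC4, whose protein binds and lowers TET2 in mouse cells, fell 1.33-fold (edgeR adjusted p = 0.032), and its relative CXXC5 rose 1.24-fold (edgeR adjusted p = 0.048). OGT, the O-GlcNAc transferase that binds TET2 and TET3, fell 1.31-fold, from 350.5 ± 41.1 to 266.8 ± 15.4 CPM (edgeR adjusted p = 0.044). With length offsets IDH3B and CXXC4 were called (adjusted p = 0.027 and 0.039) and OGT and CXXC5 were not (adjusted p = 0.089 and 0.078). Under these offsets 2.86% of all tested genes were called higher and 2.77% lower. When each of the 6 libraries was left out in turn, OGT and CXXC5 were called in 0 fits (edgeR adjusted p = 0.056 to 0.14 and 0.069 to 0.13), CXXC4 only without prepuberty replicate 2 and IDH3B in all but those without prepuberty replicate 1 or 3 (edgeR adjusted p = 0.066 and 0.050). SLC23A2, an ascorbate transporter gene, had a log2 fold change of -0.22 (edgeR adjusted p = 0.11).

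Among 8 tested genes of GADD45 partners, 1 was called higher and 0 lower, where 5.85% and 5.64% of all tested genes were. The median log2 fold change was 0.00. GADD45GIP1, whose protein binds GADD45 proteins and is also part of the mitochondrial ribosome, rose 1.53-fold, from 44.5 ± 1.54 to 68.2 ± 5.34 CPM (edgeR adjusted p = 0.014, or 0.029 with length offsets and 0.061 without prepuberty replicate 1). ING1, a chromatin reader gene, had a log2 fold change of 0.39 (edgeR adjusted p = 0.076). The cell cycle kinase gene CDK1, which is also counted among the genes of dividing cells, had a log2 fold change of -0.41 (edgeR adjusted p = 0.25). The stress kinase genes MAP3K4 and MAPK14 had log2 fold changes of -0.09 and -0.13 (edgeR adjusted p = 0.54 and 0.45). CDKN1A, which encodes a cell cycle inhibitor that binds GADD45 proteins, had a log2 fold change of 0.19 (edgeR adjusted p = 0.59).

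**Figure D4:**
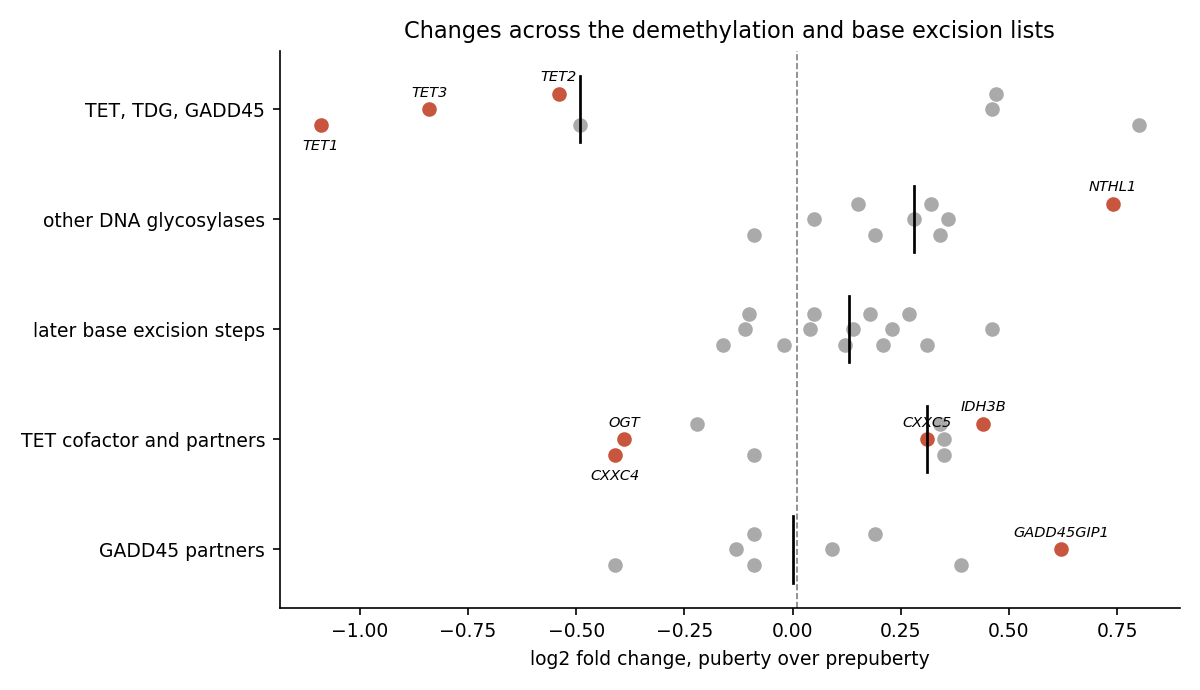
Log2 fold change of each tested gene in the set and in 4 related lists, with genes called by edgeR in red and named, other genes in grey, the median of each list as a black line and the median of all tested genes (0.01) as a dashed line. The 3 TET genes lie at -1.09, -0.84 and -0.54, below each gene of the other 4 lists in these values, which are without length offsets. With the offsets TET2 was at -0.31, above CDK1 (-0.45), CXXC4 (-0.43) and OGT (-0.33).

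Genes with the most similar profile were sought among 11692 other tested genes with a symbol and a mean of at least 1 CPM, by the root mean square difference of log2 CPM after subtracting each gene's own mean over the 6 libraries. TET1 was nearest to FGF11 (0.086) and SCN7A (0.115), TET2 to ARHGAP21 (0.030) and RUFY2 (0.036), and TET3 to CACNA1D (0.061) and BRWD3 (0.076). All 6 of these genes were themselves called lower by edgeR, where 5.64% of all tested genes were. They were chosen in the same libraries for likeness to called genes, so their calls are no separate evidence. TDG was nearest to PARD6B (0.025) and WDR36 (0.035). GADD45A was nearest to MPEG1 (0.076) and C1QA (0.091), both macrophage and microglia genes, GADD45B to TUBA8 (0.060) and S100A3 (0.077), and GADD45G to PLPP6 (0.069) and IDH3A (0.112). Within the set TET2 and TDG were the closest pair, at 0.101, and TET1 and GADD45A the most distant, at 1.082.

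Summed levels of markers of other cells were set beside these genes, with the calls over all tested genes given above as background (5.64% lower and 5.85% higher). DESeq2 called 8.51% of all genes lower and 8.94% higher, and edgeR had 4807 of 16588 at an unadjusted p under 0.05. The microglia list had all 12 genes in the table and none at 0. Its summed level was 179.7, 214.2 and 157.5 CPM in prepuberty and 192.5, 325.0 and 342.5 CPM in puberty. As for GADD45A, puberty replicates 2 and 3 were highest in this sum and puberty replicate 1 lay within the prepuberty range. By gene, puberty replicate 1 was below all prepuberty libraries for P2RY12, AIF1, CD68 and PTPRC. It was above them for TYROBP and within their range for the other genes. Puberty replicate 2 lay within the prepuberty range for CD68 and PTPRC. All 12 log2 fold changes were above 0, around a median of 0.61. By edgeR 1 gene was called higher and 0 lower (7 at an unadjusted p under 0.05), and DESeq2 called 5 higher and 0 lower. Of the genes of dividing cells, 7 of 10 were in the table, none at 0, and their summed level was 52.4, 60.6 and 68.6 CPM in prepuberty and 32.5, 26.1 and 34.6 CPM in puberty, with 4 genes called lower and 0 higher by edgeR. As for TET1, the groups were apart in this sum and puberty replicate 2 was lowest. Among the prepuberty libraries, however, replicate 1 had the highest TET1 level and the lowest sum. Single genes differed. TOP2A, CDK1, BUB1, KIF11 and MCM2 were lowest in puberty replicate 2, CENPF in puberty replicate 1 and NUSAP1 in puberty replicate 3. MCM2 had a log2 fold change of -0.07, and its groups overlapped. The oligodendrocyte list had 7 of 8 genes in the table and none at 0. It was at 233.3 to 340.9 CPM in prepuberty and 206.0 to 229.0 CPM in puberty. By edgeR 0 genes were called (5 at an unadjusted p under 0.05), and DESeq2 called 2 lower. OLIG1 and OLIG2 had log2 fold changes of 0.66 and 0.81, and those of the other 5 were below 0. The astrocyte list, with all 8 genes in the table and none at 0, was at 4223 to 5824 CPM and 6245 to 6465 CPM. Most of that sum came from GFAP and ALDOC, and edgeR called 2 genes higher and 0 lower. AQP4, SLC1A2 and GJA1 had log2 fold changes of -0.28, -0.29 and -0.16, and those of the other 5 were above 0. The part of these cells in the changes of the TET and GADD45 genes was not tested. Without puberty replicate 2, the library with the high TTR level, the log2 fold changes were -0.93 for TET1, -0.54 for TET2 and -0.80 for TET3, and all 3 were called (edgeR adjusted p = 0.043 for each).

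**Figure D5:**
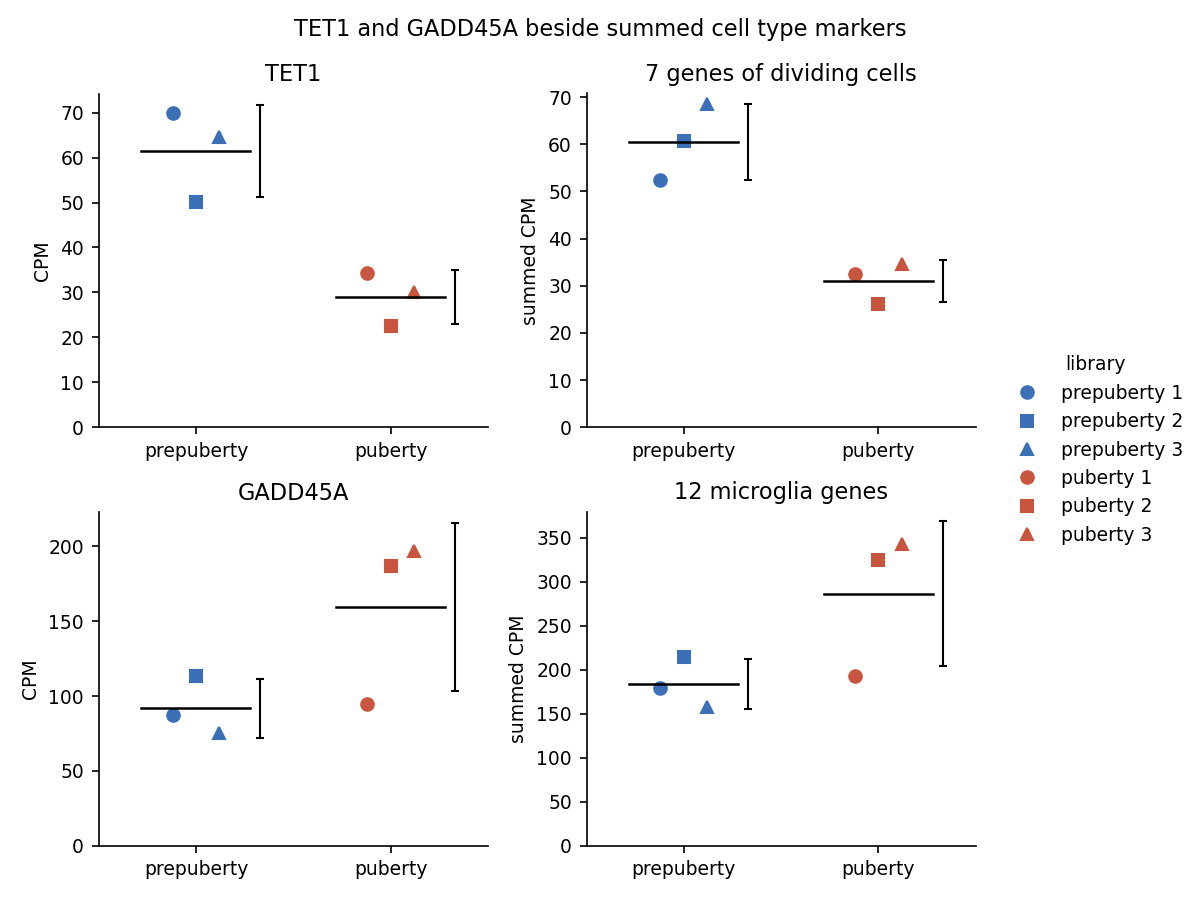
CPM of TET1 and GADD45A in each library (left) beside the summed CPM of 7 genes of dividing cells and of 12 microglia genes (right), with group means as lines and 1 SD as bars (n = 3). Puberty replicate 2 is lowest for TET1 and for the sum over genes of dividing cells. Prepuberty replicate 1 is highest for TET1 and the lowest prepuberty library for that sum. Puberty replicate 1 is the lowest puberty library for GADD45A and for the sum over microglia genes.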

How the data were processed

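Per the labels' protocols, total RNA came from a TRIzol extraction, and a NEBNext Ultra kit, which does not mark strand, was used for the libraries. The submitters' processing notes name HISAT2 2.0.5 and featureCounts 1.5.0-p3, along with CASAVA 1.8, fastp and DESeq2 1.20.0, without roles, beside human builds, although the gene identifiers are goat Ensembl identifiers. Neither the build behind the listed coordinates nor the strand setting is given in the sources used here. The 7 genes shared their span with 2 short RNA genes, which held 3 counts in all. Counts are the authors' deposited raw reads per gene. The deposited FPKM table holds the authors' FPKM values, which equal the count over listed length and 1 constant per library (largest relative deviation 2.18e-14), and was used for levels between genes and for alternative tests.

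Genes were kept by filterByExpr (minimum count 10), scaled by TMM and fitted in edgeR 4.0.16 under R 4.3.3 (quasi-likelihood F test, robust, no covariate, common biological coefficient of variation 0.18), with Benjamini-Hochberg adjustment over 16588 genes. CPM values use TMM-scaled totals, and log2 CPM a prior count of 2. Standard errors were derived from the F statistic. Length offsets are lowess fits (span 0.5) of each library's log2 CPM deviation on log2 length. Alternatives used DESeq2 1.42.0 and limma 3.58.1. The fits were tested on simulated counts with known changes.

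All 7 genes are named, with called members and up to 3 others of each list by smallest p, and the 2 nearest profiles of each gene. MBD4, SMUG1, NEIL3, MAP3K4, CDKN1A and IDH3A were added after their values were seen. The genes and lists were chosen with earlier results of these data known. A gene of the partner lists is not reported here.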

Additional observations from a re-analysis of the deposited data

How the results depend on the processing

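All 161 values of the 7 genes under 23 alternatives kept their direction. The count of TET, TDG and GADD45 genes called lower stayed at 2 to 4, except that it was 0 with length offsets and the replicate block together, 0 with limma on log2(FPKM + 1) without a filter on low values, and 0 to 3 when single libraries were left out. The largest adjusted p of a TET gene under the 2 former alternatives was 0.13 and 0.052. The count called higher was 0, or 1 in DESeq2 (GADD45A), 1 without puberty replicate 1 (GADD45A) and 0 to 1 in DESeq2 with single libraries left out, an alternative chosen after the data were seen. Over all genes, 971 were called higher and 935 lower, against 475 and 459 with length offsets, 366 and 354 with the replicate block, 1 and 1 with both, 1628 and 1617 at an adjusted p under 0.1, and 0 and 0 with limma on log2(FPKM + 1) without a filter (5056 at an unadjusted p under 0.05). DESeq2 called 1425 and 1355. With single libraries left out, 0 to 728 were called higher and 0 to 540 lower. Same-numbered libraries did not deviate together (correlations of 0.0531, -0.0974 and -0.0958 over genes), so the replicate number marks no known pairing. With the replicate block TET1, TET2 and TET3 were called (adjusted p = 0.041 for each), and no gene of the set changed its side of the threshold, while NTHL1, OGT, CXXC4 and CXXC5 lost their calls (adjusted p = 0.076, 0.070, 0.075 and 0.10). All 7 genes had at least 145 counts in each library.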
